A study of Mus musculus with 12 samples.

Results

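A set of 202 mouse genes was examined that stood higher at day 21 than at day 14 in differentiating preosteoblasts treated with interferon beta (IFN). A gene was a member when its lower CPM (the usual depth-scaled read count) in the 2 IFN day 21 libraries was at least 3 and at least 1.8 times its higher CPM in the 2 IFN day 14 libraries. CPM sets the count against the total count of the library and is not scaled by gene length. The members were thus selected on their measured levels in these 4 libraries. The members were 0.365% of 55291 gene symbols in the table and 1.85% of the 10905 genes with at least 3 CPM in both IFN day 21 libraries. The mirror rule, with day 14 over day 21, held for 66 symbols.

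The cells were MC3T3-E1, an established wild-type mouse preosteoblast line that lays down bone matrix in culture, and every group came from this line. Cells 2 days past confluence were taken as day 0 and were then induced to differentiate, with mouse IFN beta at 50 mg/L or without it. The groups were IFN day 0, IFN day 14, IFN day 21, control day 0, control day 14 and control day 21, with 2 libraries in each, 12 in all. A dose of 50 mg/L is recorded for the IFN day 0 libraries too. The labels do not say whether these cells had met IFN by then, nor whether the 2 libraries of a group came from separate cultures. P-values thus measure only the spread between the libraries of a group, which may be technical.

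Type I interferons bind a cell surface receptor and switch on interferon-stimulated genes through JAK kinases and STAT proteins. Osteoblasts secrete a collagen-rich matrix, load it with acidic phosphoproteins and control the phosphate and pyrophosphate that decide whether mineral forms. Immediate early genes encode short-lived transcription factors and mRNA regulators that growth factor and stress signals switch on within minutes, and the ERK pathway that drives many of them also switches on its own inhibitors, the Sprouty proteins and the dual specificity phosphatases.

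Total counts ran from 29772425 to 38908453 per library. Osteoblast transcripts were present, with Runx2, the master regulator of the lineage, between 72.5 and 131 CPM in all libraries and Col1a1, a chain of type I collagen, between 1120.2 and 9810.5 CPM, while the late marker Bglap (osteocalcin) reached at most 5.57 CPM. The 63 interferon-stimulated genes of a fixed list summed to 1482 and 1374 CPM in IFN day 0 libraries, 20206 and 20428 at IFN day 14 and 12781 and 12726 at IFN day 21, against 838 to 1735 CPM in control libraries. The control pairs were less alike than the IFN pairs. The median absolute log2 difference in CPM between the 2 libraries over genes with at least 100 counts was 0.077, 0.078 and 0.10 at IFN days 0, 14 and 21, against 0.32, 0.27 and 0.58 at control days 0, 14 and 21. Control day 0 replicate 2 was about as close to the IFN day 0 libraries (0.085 and 0.081) as these were to each other, while control day 0 replicate 1 differed from all 3. Control day 21 replicate 2 stood apart by its unfolded protein response genes, whose 19 listed genes summed to 51389 CPM there, against 4491 CPM in control day 21 replicate 1 and 4938 and 4977 CPM at IFN day 21. Counts come from bulk RNA, so fewer cells of a kind and less RNA per cell cannot be told apart.

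The ratio that chose the members, the lower IFN day 21 CPM over the higher IFN day 14 CPM, had a median of 2.10 and a maximum of 21.6. It reached 5 in 12 members and 10 in 3, and lay under 2 in 70. Dmp1 had the highest ratio, followed by Nt5e at 12.1 and Fos at 11.2. Just inside the limit were Mfap3l, Lamb1 and Tspan11 at 1.8003, 1.8011 and 1.8021, and just outside were Vegfa, Plk3 and Il4ra at 1.7986, 1.7973 and 1.7948, so the edge of the set falls in a continuum. Mean CPM at IFN day 21 ran from 3.11 to 13704 with a median of 23.9, and 38 members averaged at least 100 CPM. These values describe how the set was chosen and carry no test. All 202 members matched GENCODE genes on 20 chromosomes, and 190 were protein coding. Exons of 60 members overlapped those of another gene, and since the use of strand in counting is not given in the sources used here, reads of such pairs cannot be told apart. Of the members named below this touches Spp1, Ank, Smpd3, Zfp36, Jun, Junb, Dusp1, Dusp5, Spry1, Ereg, Ptger4, Adamts4, Stab1, Actg1, Arhgap6, Sox4, Frmd4a, Phlda1, Selp, Atp2b4, Mmd and Gm49774.

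The members had no common history before the late change. Among them 64 were at least 1.8 times lower at IFN day 14 than at IFN day 0 (all libraries of one day beyond all of the other), against 6.85% of the 10905 genes, and 40 were at least 1.8 times higher, against 6.84%. At IFN day 21, 112 members were at least 1.8 times above IFN day 0 (7.38% of the 10905 genes) and 10 were at least 1.8 times below it (5.5%). So some members had dipped by day 14 before the late change, some were already higher by then, and the rest met neither margin at day 14. These counts use libraries that chose the members, and nothing is read from them beyond this description. Across the set the median CPM per library was 11.0 and 10.9 at IFN day 0, 8.57 and 8.95 at day 14, then 24.03 and 22.1 at day 21, against 9.47 and 10.7, 13.1 and 8.54, and 21.7 and 14.2 CPM at the same days in control.

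**Figure D1:**
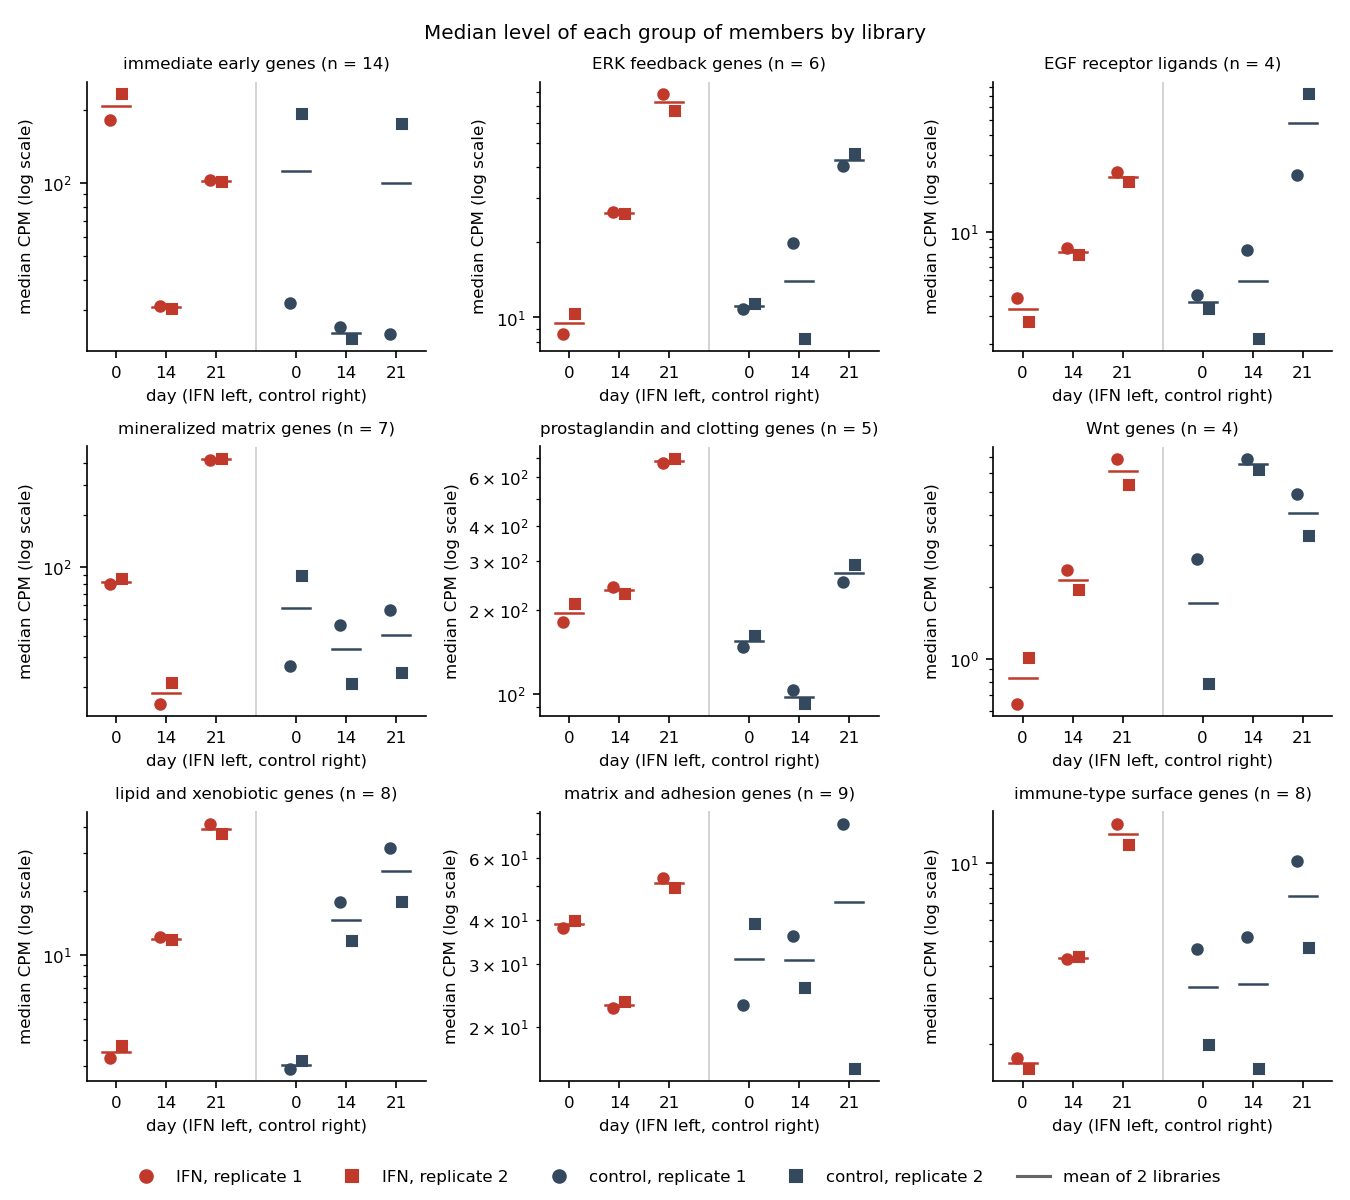
Median CPM (log axis) of 9 groups of members in each library, by day, with IFN at the left and control at the right of each panel. Circles are replicate 1, squares replicate 2 and lines the mean of both. The immediate early panel dips at IFN day 14, the lipid and ERK feedback panels climb from day 0 on, and control replicates lie far apart in several panels.

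The same change was then looked for in the control arm, whose libraries took no part in choosing the members. The late-rise rule, applied to control day 21 over control day 14, held for 23 of the 202 members (11.4%), against 0.614% of the 10905 genes and 0.136% of all 55291 symbols. Control day 21 lay above control day 14 without overlap in 74 members, against 12.1% of the 10905 genes, and below it in 4, against 24.3%. The mean control ratio of day 21 to day 14 was above 1 in 171 members (84.7%), against 35.6% of the 10905 genes, and its median log2 was 0.65 in members and -0.15 in all 10905 genes. The corresponding IFN medians, fixed in sign by the rule, were 1.22 and -0.046. The control figures use CPM without further scaling. Over the 16540 genes tested, the median log2 change in control was -0.14 by library size alone and 0.011 with TMM scaling. The shares of the 10905 genes thus do not show that most genes fell after day 14.

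How many members met the rule in control depended on the library. With control day 21 replicate 1 alone, 59 members met it (1.7% of the 10905 genes), and with replicate 2 alone 57 did (4.97%). Leaving out replicate 1 of control day 14 also gave 57, and leaving out its replicate 2 gave 24. In edgeR's quasi-likelihood test of control day 21 against control day 14 no gene among 16540 passed a Benjamini-Hochberg adjusted p of 0.05 (0.0% higher, 0.0% lower). At an unadjusted p under 0.05 stood 1787 genes, of which 70 were members, all 70 higher at day 21. DESeq2 called 190 genes, with 33 members higher (0.81% of all genes) and 0 lower (0.339%). Without control day 21 replicate 1, edgeR called 49 members higher, against 7.14% of 18051 genes, and 9 lower, against 6.61%. Those calls rest on replicate 2, the library set apart by unfolded protein response genes.

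**Figure D2:**
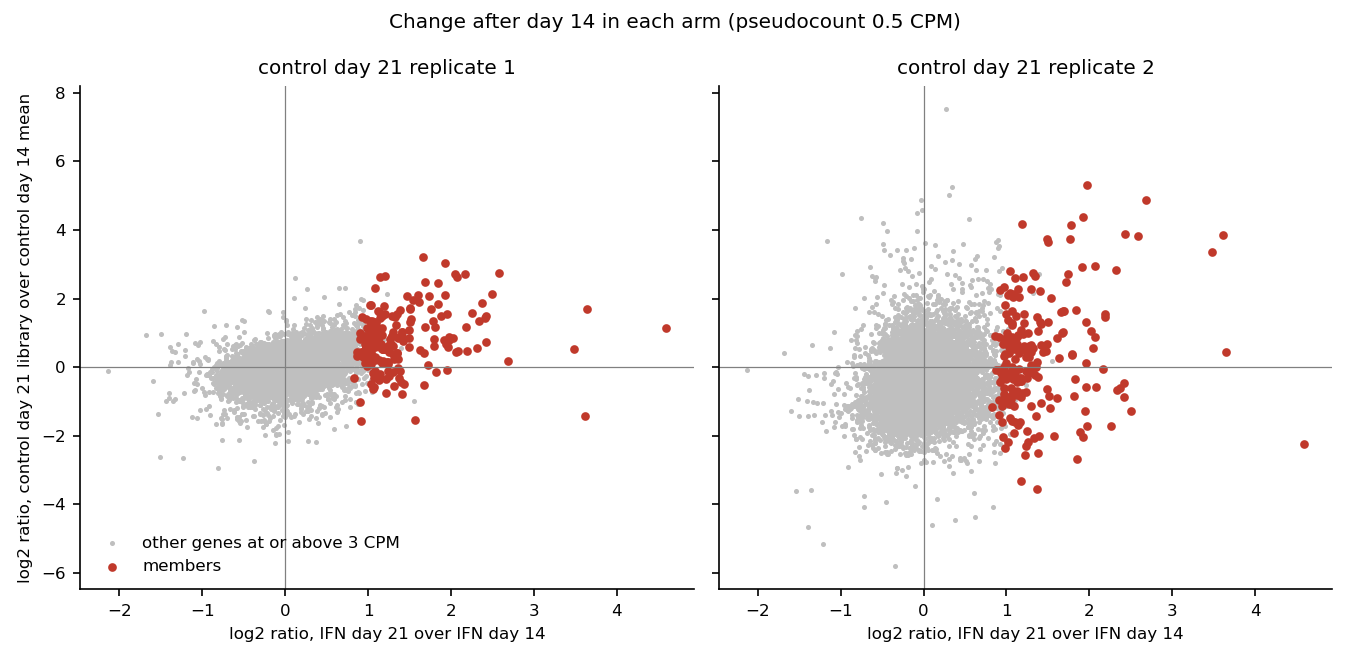
Each point is a gene, with the log2 ratio of IFN day 21 to IFN day 14 on the x axis and the log2 ratio of 1 control day 21 library to the mean of control day 14 on the y axis, both of CPM with a pseudocount of 0.5. Members, in red, lie at the right because the rule put them there, and most lie above 0 on the y axis in control day 21 replicate 1, while they spread widely in replicate 2.

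The 23 members that met the rule in both arms included the ERK phosphatases Dusp2, Dusp4, Dusp5 and Dusp6, the EGF receptor ligands Ereg, Areg and Hbegf, the prostaglandin genes Ptgs2 and Ptger4, the clotting regulator Thbd, the bradykinin receptor Bdkrb2, the transcription factor Egr3, the lipase inhibitor Angptl4, the surface proteins Cd244a, Calcrl and Sema7a, and Frmd4a, Phlda1, Fam110c, Pbp2, Gm19589 and Gm49774. None of the 7 mineralized matrix members met it in control, against 11.4% of all 202 members and 0.614% of the 10905 genes. At these shares a count of 0 in 7 does not set the group apart. The groups of members used here were put together, and these 22 names chosen, after their values had been seen.

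Among the mineralized matrix genes, Dmp1 (dentin matrix protein, an acidic phosphoprotein of late osteoblasts and osteocytes, chr5:104202613-104214102) stood out. Its level was 79.3 and 84.9 CPM at IFN day 0, 16.1 and 21.2 at day 14, then 458 and 462 at day 21. In control it was 26.8 and 88.3 CPM at day 0, 46.1 and 4.497 at day 14, then 56.6 and 4.94 at day 21. Both IFN day 21 libraries lay far above every other library, while the control pairs overlapped between all days. Spp1 (osteopontin, chr5:104435118-104441050), the most abundant member both in CPM and per kilobase of exon, had 2319 and 2356 CPM at IFN day 0, 5126 and 5143 at day 14, then 13419 and 13988 at day 21. Control cells had 2015 and 2395 CPM of Spp1 at day 0, 5008 and 2722 at day 14, then 6533 and 6049 at day 21. Spp1 thus stood higher at each later IFN day, and the control day 21 pair also lay above the control day 14 pair. Ibsp (bone sialoprotein) lies between Dmp1 and Spp1 on chromosome 5 (chr5:104299171-104311469) and was lower with IFN, with 9.54 and 6.31 CPM at IFN day 21 and 2.34 and 0.638 at IFN day 14, against 23.8 and 11.3 CPM at control day 21 and 21.4 and 12.96 at control day 14. Every control library of days 14 and 21 exceeded every IFN library. Ibsp was nearly absent at day 0, with 2 counts in IFN and 0 in control libraries together.

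Of the 7 mineralized matrix members, Spp1, Dmp1, Fam20c, Ank and Smpd3 lay above control at day 21 (30.4% of the 10905 genes did). Ibsp lay below control (11.7%) and Alpl overlapped. Fam20c, the Golgi kinase that phosphorylates secreted matrix proteins such as osteopontin, had 171 and 178 CPM at IFN day 0, 219 and 209.6 at day 14, then 643 and 581 at day 21, against 196 and 183, 144 and 87.9 and 378 and 63.96 CPM in control. Ank, a membrane protein needed for pyrophosphate export, had 202 and 204, 149 and 149.9 and 417 and 424 CPM at the 3 IFN days, against 219 and 202, 147 and 109 and 269.6 and 82.7 CPM in control. For both genes control day 21 replicate 1 lay above both control day 14 libraries and replicate 2 lay below them, and both IFN day 21 libraries lay above all 4. Smpd3, a sphingomyelinase whose loss impairs mineralization in mice, was low throughout, with 4.13 and 3.299 CPM at IFN day 21 and 1.41 and 0.974 at IFN day 14, against 1.12 and 2.99 CPM at control day 21. Alpl, the alkaline phosphatase that removes pyrophosphate, had 3.43 and 2.5, 4.38 and 4.23 and 11.3 and 10.04 CPM at the IFN days, against 0.565 and 3.01, 10.4 and 20.9 and 9.03 and 24.2 CPM in control, so its IFN day 21 level lay between the control day 21 libraries. At day 14 Alpl, like Ibsp, lay lower in IFN than in control. Nt5e (CD73, the cell surface enzyme that turns AMP into adenosine and phosphate) had 28 and 31.8 CPM at IFN day 21 and 1.55 and 2.32 at IFN day 14, against 23.2 and 9.25 CPM at control day 21 and 9.58 and 3.87 at control day 14.

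Over the whole lists, members were 4 of 20 osteoblast and bone matrix genes, 3 of 8 phosphate and mineralization genes and 1 of 6 osteocyte genes with at least 3 CPM in both IFN day 21 libraries. Median ratios of the rule in these lists were 1.07, 1.48 and 1.26. The osteocyte markers Sost and Mepe had at most 0.116 CPM and 0.0588 CPM in any library. In the edgeR fit Ibsp and Tnn were the osteoblast list genes called higher at control days 14 and 21 than at control day 0, and 0 of 25 tested were called between control days 21 and 14, where the median log2 change of the list was 0.29, with 4 higher and 1 lower at an unadjusted p under 0.05 and 1 called higher by DESeq2.

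**Figure D3:**
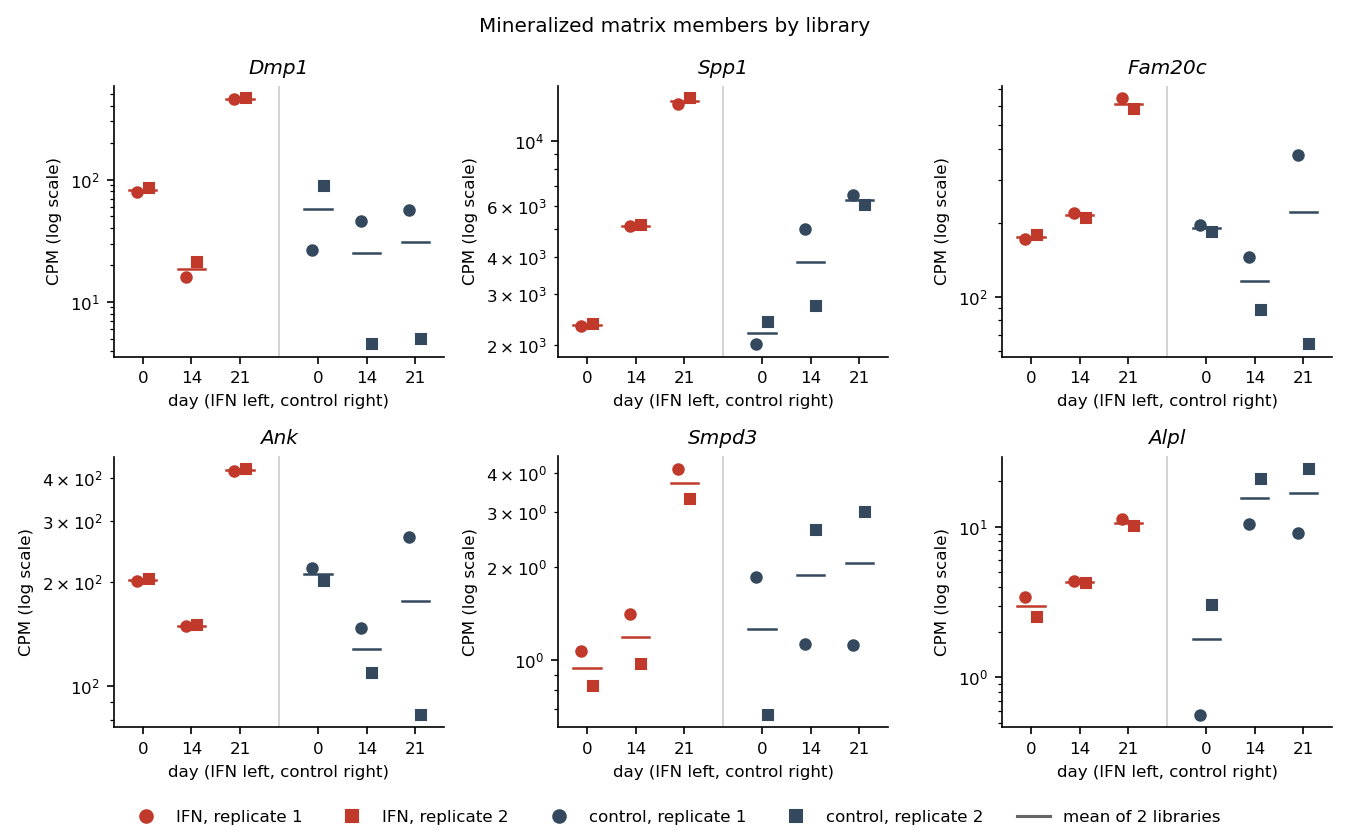
CPM (log axis) of 6 mineralized matrix members by library and day, IFN at the left and control at the right of each panel, with circles for replicate 1, squares for replicate 2 and lines for the mean. Dmp1 at IFN day 21 (458 and 462 CPM) stands above every other library, and for Fam20c and Ank the control day 21 replicates lie on either side of the day 14 level.

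The immediate early genes were the densest group, with 9 members among 17 listed genes at the floor of 3 CPM and 5 more outside the list (Arc, Btg2, Zfp36, Ccn1 and Dusp1). Of the 14, 13 were at least 1.8 times lower at IFN day 14 than at IFN day 0, Junb being the exception, against 64 of all 202 members and 6.85% of the 10905 genes. Nothing is read from this count, since the rule needs low IFN day 14 values. Fos, a subunit of the AP-1 transcription factor, had 369 and 406 CPM at IFN day 0, 10.5 and 8.23 at day 14, then 118 and 122 at day 21, against 2.26 and 416 at control day 0, 4.13 and 17.2 at day 14, then 3.68 and 160.01 at day 21. IFN day 21 was thus below IFN day 0. Egr1, a zinc finger factor, had 574 and 692, 165 and 165 and 1184 and 947 CPM in the same order, against 100.3 and 549, 53.3 and 71.96 and 71.5 and 1849 CPM in control. Unlike Fos, it ended above its day 0 level. Zfp36, which speeds decay of AU-rich mRNAs, had 123 and 146, 40.8 and 38.1 and 88.1 and 74.7 CPM at the IFN days, against 18.5 and 124, 21.2 and 27.5 and 17.2 and 175 CPM in control.

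For these genes the control replicates differed from each other at both ends of the time course. All 14 met the late-rise rule with control day 21 replicate 2 alone (57 of 202 members and 4.97% of the 10905 genes did). With replicate 1 alone 1 of the 14, Egr3, met it (59 of 202 members and 1.7% of the 10905 genes). The median of the 14 genes was 23.8 CPM in replicate 1 of control day 21 but 176 CPM in replicate 2, and at control day 0 it was 31.9 CPM in replicate 1 but 193 CPM in replicate 2. In IFN libraries it was 181 and 234 CPM at day 0, 31.2 and 30.2 at day 14, then 103 and 101 at day 21. For 0 of the 14 genes did the IFN day 21 pair lie wholly above or below the control day 21 pair. Of the 10905 genes 30.4% lay above and 11.7% below. Whether the unfolded protein response gene level of control day 21 replicate 2 bears on these genes was not tested. In edgeR's tests 0 of the 18 listed immediate early genes were called in any of the 4 comparisons. For control day 21 against day 14 their median log2 change was 1.496, with 6 genes higher and 0 lower at an unadjusted p under 0.05 and 2 called higher by DESeq2. For control day 14 against day 0 the median was -1.04, with 6 lower and 0 higher at an unadjusted p under 0.05 and 1 called lower by DESeq2. Control day 21 against day 0 gave 3 higher and 1 lower at an unadjusted p under 0.05, with 2 called higher and 1 lower by DESeq2, and IFN against control at day 0 gave 0 by either measure. Listed genes that were not members included Klf2, at 7.22 and 8.98 CPM at IFN day 21 and 4.799 and 3.59 at IFN day 14, Myc, at 119 and 102 and 121 and 126, and Nr4a2, at 9.62 and 11.5 and 14 and 15.2 CPM. Thus the late change did not extend to every gene of the class.

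Of the 6 ERK feedback genes, 5 lay higher at control day 21 than at control day 14 without overlap. So did 74 of all 202 members and 12.1% of the 10905 genes. The group was put together after its values were seen, so nothing more is read from this count. Dusp4, a nuclear ERK phosphatase, had 4.06 and 4.97 CPM at IFN day 0, 29.5 and 26.6 at day 14, then 83.1 and 81.8 at day 21, against 23.9 and 6.89, 18.2 and 5.47 and 47.3 and 49.2 CPM in control. The control day 21 libraries were close to each other and above both control day 14 libraries, yet below IFN day 21. Dusp5, also a nuclear phosphatase, had 18.2 and 17.1, 27.7 and 26.1 and 82.96 and 71.4 CPM at the IFN days, against 11.6 and 15.8, 21.7 and 10.96 and 54.7 and 211 CPM in control. Dusp6, a cytoplasmic ERK phosphatase, had 142 and 138 CPM at IFN day 21 and 67.7 and 63.7 at IFN day 14, against 64.6 and 114 CPM at control day 21 and 28.9 and 22.2 at control day 14. The receptor signalling inhibitor Spry2 had 74.4 and 62.4 CPM at IFN day 21 and 25.01 and 25.9 at IFN day 14, against 33.6 and 41.1 CPM at control day 21 and 21.4 and 11.03 at control day 14. Spry1, which also restrains receptor signalling, was the gene whose control days overlapped, with 29.4 and 25.99 CPM at IFN day 21 and 10.6 and 10.8 at IFN day 14, against 23.3 and 1.92 CPM at control day 21 and 14.7 and 4.68 at control day 14. All of the 6 genes but Dusp5 had both IFN day 21 libraries above both control day 21 libraries, against 30.4% of the 10905 genes, a count that uses libraries of the rule.

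**Figure D4:**
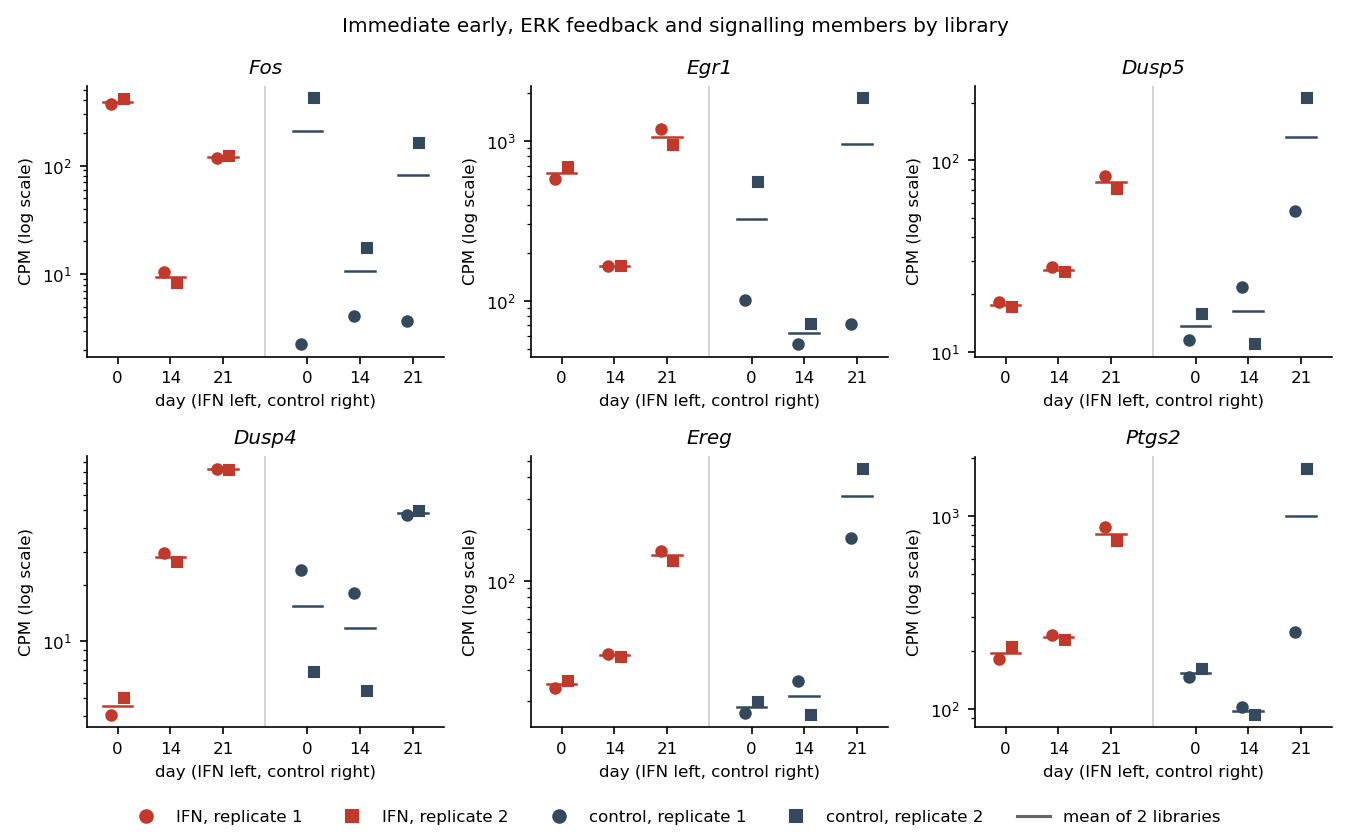
CPM (log axis) of 6 signalling members by library and day, IFN at the left and control at the right of each panel, with circles for replicate 1, squares for replicate 2 and lines for the mean. Fos and Egr1 dip at IFN day 14 and split the control replicates, while Dusp4, Ereg and Ptgs2 stand higher at day 21 than at day 14 in both arms.

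The 4 EGF receptor ligands were higher at control day 21 than at control day 14 without overlap. Of all 202 members 74 were, as were 12.1% of the 10905 genes. This group, too, was chosen after its values were seen. Ereg (epiregulin, chr5:91074622-91093646) had 23.5 and 26.1, 37.2 and 36.01 and 149.7 and 131 CPM at IFN days 0, 14 and 21, against 16.9 and 19.6, 25.97 and 16.5 and 178 and 448 CPM in control. Areg (amphiregulin, chr5:91139599-91148432), its neighbour on chromosome 5, had 0.378 and 0.398, 0.621 and 0.269 and 4.83 and 5.51 CPM at the IFN days, against 0.722 and 0.488, 4.97 and 0.531 and 21.4 and 45.8 CPM in control. Both genes were higher late in both arms, and both were lower in IFN than in control at day 21. Hbegf had 25.1 and 22.5 CPM at IFN day 21 and 7.96 and 5.37 at IFN day 14, against 24 and 99.1 and 10.5 and 3.53 CPM at the same control days. Btc (betacellulin) was the 1 ligand that lay higher with IFN at day 21, with 21.9 and 18.2 CPM at IFN day 21, against 8.88 and 2.39 CPM at control day 21.

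Of 5 prostaglandin and clotting genes, 4 lay higher at control day 21 than at control day 14 without overlap. The same held for 74 of all 202 members and 12.1% of the 10905 genes. These 5 were also grouped after their values were seen. Ptgs2 (cyclooxygenase-2, the inducible enzyme of prostaglandin synthesis) had 182 and 209, 243 and 229 and 874 and 747 CPM at IFN days 0, 14 and 21, against 147 and 161, 103 and 93.7 and 252 and 1758 CPM in control. Ptger4, a receptor for prostaglandin E2, had 14.3 and 14.4 CPM at IFN day 21 and 5.96 and 6.48 at IFN day 14, against 8.501 and 18.2 and 4.11 and 3.904 CPM at the same control days. Thbd (thrombomodulin, a surface anticoagulant) had 818 and 757 CPM at IFN day 21 and 348 and 334 at IFN day 14, against 353 and 291 CPM at control day 21 and 147 and 92.2 at control day 14. All 3 were higher at day 21 in both arms, and Thbd was the one with both IFN day 21 libraries above control. Plau (urokinase, which activates plasmin) had 58.1 and 58.9, 11.5 and 9.07 and 34.7 and 33.6 CPM at the IFN days, against 33.3 and 49.8, 24.9 and 13.5 and 43.4 and 39.4 CPM in control. It was lowest at day 14 in both arms and lay lower with IFN at days 14 and 21. Serpine2, a serine protease inhibitor, had 671 and 696 CPM at IFN day 21 and 339 and 342 at IFN day 14, against 672 and 341 CPM at control day 21 and 504 and 266 at control day 14, and its control days overlapped.

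Promoter sequence is shown for 4 of these genes to show where a CArG box or TGACGTCA lies in them, and the 4 were chosen for holding one. RefSeq windows on GRCm38.p6, from 250 bases before to 50 after the transcription start, were at hand for 142 of the 202 members and 27025 symbols in all, with several windows where a gene has several starts. Capitals mark a CArG box, the serum response factor motif, in Dusp5 (chr19:53528895-53529194, plus strand) and Zfp36 (chr7:28379179-28379478, minus strand). In Dusp1 (chr17:26508423-26508722, minus strand) and Areg (chr5:91139349-91139648, plus strand) they mark TGACGTCA, the cyclic AMP response element. Each is printed 5′ to 3′ on the strand of the gene.
Dusp5: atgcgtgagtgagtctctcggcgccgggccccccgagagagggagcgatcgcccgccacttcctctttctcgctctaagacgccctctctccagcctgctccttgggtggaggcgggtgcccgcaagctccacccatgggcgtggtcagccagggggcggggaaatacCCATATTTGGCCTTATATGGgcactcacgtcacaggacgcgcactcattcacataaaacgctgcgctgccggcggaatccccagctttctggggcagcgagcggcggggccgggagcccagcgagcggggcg
Zfp36: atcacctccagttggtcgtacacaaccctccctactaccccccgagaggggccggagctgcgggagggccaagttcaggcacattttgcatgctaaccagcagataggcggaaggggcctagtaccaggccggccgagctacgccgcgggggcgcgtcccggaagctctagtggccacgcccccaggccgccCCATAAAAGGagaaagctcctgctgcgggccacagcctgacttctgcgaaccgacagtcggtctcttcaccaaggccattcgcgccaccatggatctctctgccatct
Dusp1: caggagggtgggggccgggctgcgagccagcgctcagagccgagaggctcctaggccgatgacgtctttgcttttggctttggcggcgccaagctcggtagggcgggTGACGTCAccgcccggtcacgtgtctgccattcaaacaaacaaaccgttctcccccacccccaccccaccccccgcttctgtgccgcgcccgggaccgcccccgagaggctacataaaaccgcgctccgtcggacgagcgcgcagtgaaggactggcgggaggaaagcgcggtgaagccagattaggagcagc
Areg: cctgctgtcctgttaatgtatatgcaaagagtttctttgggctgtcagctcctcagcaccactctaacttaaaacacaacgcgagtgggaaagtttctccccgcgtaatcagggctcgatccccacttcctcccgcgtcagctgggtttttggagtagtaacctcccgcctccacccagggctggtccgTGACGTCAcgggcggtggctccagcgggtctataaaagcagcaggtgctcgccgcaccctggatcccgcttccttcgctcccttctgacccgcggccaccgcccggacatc

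The Dusp5 window holds 2 CArG boxes side by side, the upstream one starting 82 bases before the transcription start. The box of Zfp36 starts 58 bases before it, and the TGACGTCA of Dusp1 and Areg 143 and 61 bases before it. Searched on both strands, a CArG box was in 6 of 142 members (4.23%) and 488 of 27025 symbols (1.81%). TGACGTCA was in 6 members (4.23%) and 549 symbols (2.03%), and the EGR motif GCGNGGGCG in 21 members (14.8%) and 1695 symbols (6.27%). The AP-1 motif TGANTCA was in 20 members (14.1%) and 2425 symbols (8.97%), and the interferon response motif (GAAA, any 2 bases, GAAA) in 7 members (4.93%) and 1079 symbols (3.99%). These are letter matches in short windows, not measured sites. The 27025 symbols were not limited to genes at 3 CPM or more, as the members are. The shares are therefore not like for like, and nothing is read from their difference.

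Among 8 lipid and xenobiotic genes, 4 were already at least 1.8 times higher at IFN day 14 than at IFN day 0, against 40 of all 202 members and 6.84% of the 10905 genes. Fabp4, a fatty acid carrier, had 0.882 and 0.995, 8.27 and 7.12 and 25.98 and 39.7 CPM at IFN days 0, 14 and 21, against 2.07 and 1.29, 23.9 and 17.6 and 38.1 and 43.4 CPM in control. Acsbg1, an acyl-CoA synthetase, had 0.189 and 0, 17.1 and 13.6 and 56.8 and 73.4 CPM at the IFN days, against 0.126 and 0, 12.97 and 1.59 and 50.7 and 10.95 CPM in control. Pdk4, the kinase that shuts down pyruvate dehydrogenase, had 756 and 652 CPM at IFN day 21 and 323 and 319.99 at IFN day 14, against 340.1 and 815 CPM at control day 21 and 468 and 418 at control day 14. Pdk4 in control overlapped between the days. Fabp4 lay lower in IFN than in control at day 14, and the groups overlapped at day 21. Cyp1a1, the cytochrome induced by the aryl hydrocarbon receptor, had 289.8 and 285 CPM at IFN day 21 and 111 and 103 at IFN day 14, against 83.04 and 109.8 CPM at control day 21 and 59.1 and 31.7 at control day 14. Cyp26b1, which breaks down retinoic acid, had 49.8 and 26.5 CPM at IFN day 21 and 11.1 and 9.77 at IFN day 14, against 25.7 and 22.4 CPM at control day 21 and 22.5 and 34.1 at control day 14. Of 22 listed adipocyte markers 10 were at the floor, and Fabp4 was the only member among them. The list summed to 662 and 660 CPM at IFN day 21, against 658 and 437 CPM at control day 21. Within it Adipoq had 0.0578 and 0.0861 CPM and Plin1 0 and 0 CPM at IFN day 21.

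Of the Wnt genes, Lgr6, a receptor for R-spondins, showed the widest span, with 0.536 and 0.938 CPM at IFN day 0, 75.5 and 92.6 at day 14, then 181 and 186 at day 21, against 9.01 and 0.771, 41.8 and 20.02 and 97.6 and 29.2 CPM in control. Wif1, a secreted Wnt inhibitor, had 0 and 0, 2.94 and 2.12 and 9.71 and 5.39 CPM at the IFN days, against 0 and 0.103, 10.4 and 11.2 and 6.09 and 4.998 CPM in control. With 0 counts at IFN day 0, Wif1 was at least 168-fold higher at IFN day 21, taking 3 counts over the group as the floor. The ligand Wnt4 had 4.05 and 5.31 CPM at IFN day 21, against 1.53 and 1.56 CPM at control day 21. Members were 3 of 18 listed Wnt genes at the floor.

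Matrix and adhesion members split the control day 21 replicates the other way from the immediate early genes. Their median at control day 21 was 74.8 CPM in replicate 1 but 15.2 CPM in replicate 2, against 36.1 and 25.7 CPM at control day 14. At control day 0 it was 23.1 CPM in replicate 1 and 38.9 CPM in replicate 2, the same direction as for the immediate early genes. In IFN it was 52.6 and 49.3 CPM at day 21 and 22.6 and 23.5 CPM at day 14. Itga6, a laminin receptor subunit, had 72.9 and 80.97 CPM at IFN day 21 and 23.7 and 25.9 at IFN day 14, against 74.8 and 10.2 CPM at control day 21 and 28.3 and 10.99 at control day 14. Col2a1, a cartilage collagen chain, had 14.04 and 19.5 CPM at IFN day 21 and 5.96 and 5.47 at IFN day 14, against 47.4 and 15.2 CPM at control day 21 and 9.64 and 11.9 at control day 14. Adamts4, an aggrecan-cleaving protease, had 88.9 and 82.9 CPM at IFN day 21, against 113 and 14.3 CPM at control day 21. For 0 of the 9 members did the IFN day 21 pair lie wholly above or below the control day 21 pair. Of the 10905 genes 30.4% lay above and 11.7% below. For 6 of the 9 members the IFN day 14 pair lay below the control day 14 pair, against 25.8% of the 10905 genes. The rule needs low IFN day 14 values.

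Slfn4, a Schlafen family gene, was the only member among 61 interferon-stimulated genes at the floor, whose median ratio of the rule was 0.596. It had 0.189 and 0 CPM at IFN day 0, 6.18 and 5.64 at day 14, then 17.2 and 13.3 at day 21, against 0 and 0.103, 0.0297 and 0 and 0.177 and 0.299 CPM in control. On 1 count in the control day 14 libraries together, Slfn4 was 390-fold higher at IFN day 14 (95% exact interval 69.5 to 15427, counting error only). Of the 8 members known mainly as immune-type surface or Schlafen genes, Slfn4, Cd33, Cd300lb, Klra2 and Cd93 lay above control at day 21 without overlap (30.4% of the 10905 genes did), Stab1 lay below it (11.7%), and Cd244a and Selp overlapped. Stab1 had 11.01 and 8.78 CPM at IFN day 21, against 28.8 and 13.9 CPM at control day 21. Cd300lb, an activating receptor of myeloid cells, had 20.8 and 21.7 CPM at IFN day 21 and 4.404 and 4.16 at IFN day 14, against 7.91 and 10.4 CPM at control day 21. Cd33, a sialic acid binding receptor, had 31.7 and 24.6 CPM at IFN day 21, against 22.9 and 0.569 CPM at control day 21. Of 18 macrophage and osteoclast markers 4 reached the floor and none was a member. The list summed to 520 and 482 CPM at IFN day 21, against 409 and 71.5 CPM at control day 21, most of it Ctsk. Of the 18 markers, 6 had 0 counts in each IFN day 21 library, Tyrobp, C1qa, C1qb and C1qc in both. Ptprc had 0 and 0.0287 CPM there.

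Some members stood outside these groups. Tnnt2 and Arhgap6 were among the 12 with the highest ratio, and Sox4 and Actg1 among the 15 most abundant at IFN day 21. Tnnt2, a cardiac troponin subunit, had 0.06302 and 0, 2.82 and 2.82 and 13.99 and 14.8 CPM at IFN days 0, 14 and 21, against 0.126 and 0.1799, 0.803 and 0.562 and 7.21 and 0.629 CPM in control. Arhgap6, a GTPase activating protein, had 6.44 and 4.93 CPM at IFN day 21 and 0.677 and 0.638 at IFN day 14, against 0.912 and 0.1197 CPM at control day 21 and 0.446 and 0.2499 at control day 14. For Arhgap6 both IFN day 21 libraries lay above every other library of the series. Sox4, a transcription factor, had 94.8 and 89.7, 174 and 173 and 326 and 325 CPM at the IFN days, against 81.6 and 94.7, 126 and 118 and 214 and 46.3 CPM in control. Actg1, cytoplasmic gamma actin, had 1747 and 1741, 524 and 503 and 1091 and 1215 CPM at the IFN days, against 1763 and 1813, 1137 and 993 and 1186 and 1473 CPM in control, so it dipped at day 14 in both arms and most in IFN. The iron exporter Slc40a1 had 35.7 and 39.1 CPM at IFN day 21 and 11.4 and 11.4 at IFN day 14, against 22.6 and 33.97 and 25.8 and 7.56 CPM at the same control days.

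Compared with control on the same day, members were not uniformly higher with IFN. At day 21, 86 members lay above control without overlap, against 30.4% of the 10905 genes, and 19 lay below, against 11.7%. With a margin of at least 1.8 times these counts were 26 (2.38%) and 3 (0.449%). At day 14, 59 lay above control (37.2%) and 75 lay below (25.8%). For 14 members IFN was above control at day 21 and below it at day 14, against 3.49% of the 10905 genes. The median log2 ratio of IFN to control was 0.40 at day 21 and -0.18 at day 14 in members, against 0.16 and 0.054 in the 10905 genes. These comparisons use the libraries that chose the members and carry no test. Here and in the gene groups above they use CPM without further scaling. The TMM factor was 0.804 for control day 21 replicate 2 and 1.016 for replicate 1, so unscaled CPM runs low in replicate 2. How far scaling would move the counts against control was not tested.

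Before differentiation, 47 members lay above control at IFN day 0 without overlap (19.9% of the 10905 genes) and 34 lay below (18.0%). The median log2 ratio of IFN day 0 to control day 0 was 0.094 in members and 0.00070 in the 10905 genes. In edgeR's test 0 of 16540 genes and 0 of 201 members passed at day 0 (0.0% in either direction), with 125 genes and 5 members at an unadjusted p under 0.05, all 5 lower in IFN, and DESeq2 called 1 gene and 0 members. The 1 member left out of the tests, Slfn4, did not pass the filter on low counts.

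**Figure D5:**
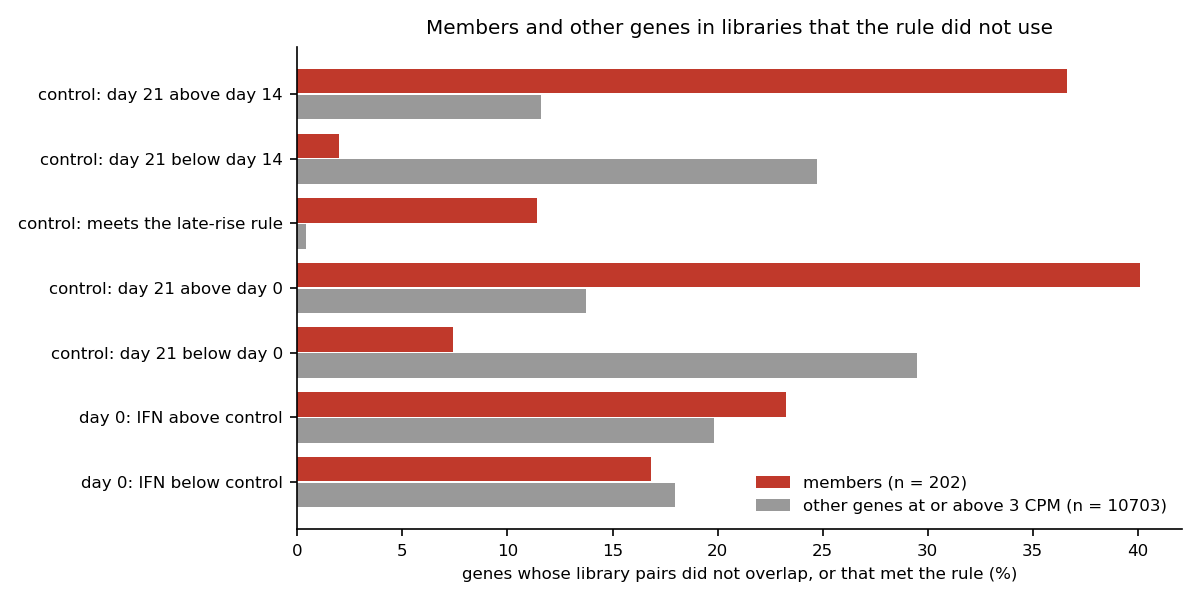
Percent of the 202 members (red) and of the other 10703 genes at or above 3 CPM (grey) whose library pairs did not overlap in the named direction, or that met the late-rise rule, in libraries that the rule did not use. Control day 21 lay above day 14 in 36.6% of members and 11.6% of other genes, and the day 0 comparison gave similar shares for both.

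Against the day 0 state, control cells had 17 members called higher at day 21 by edgeR (8.46% of 201 tested), against 0.641% of all 16540 genes and 0.545% of those that are not members, and 1 lower, against 0.363%. Counted without a test, 81 members lay above control day 0 at control day 21 (14.2% of the 10905 genes) and 15 lay below (29.1%). These counts use CPM without further scaling. By library size alone the median log2 change of the 16540 genes was -0.17, against 0.014 with TMM scaling. Fabp4 had a log2 fold change of 4.82 ± 0.39 (SE, edgeR adjusted p = 0.00372) and kept its call in 7 of 8 fits that each left out 1 library. Ereg changed by 4.38 ± 0.55 (adjusted p = 0.0174), and Cyp26b1 by 2.70 ± 0.30 (adjusted p = 0.0123), each kept in 6 of 8 fits. Areg changed by 6.06 ± 1.05 (adjusted p = 0.0427) and kept its call in 3. Ibsp, with 0 counts at control day 0, was at least 415-fold higher at control day 21 (adjusted p = 0.00712).

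Other members called higher were the ERK phosphatase Dusp2, the chondroitin sulfotransferase Chst11 (1.64 ± 0.22 log2, adjusted p = 0.0185), the procollagen peptidase enhancer Pcolce2 (2.38 ± 0.30, adjusted p = 0.0184), the scavenger receptor Stab1, Wif1, Acsbg1, the adhesion protein Alcam, the calcium pump Atp2b4, the heat shock protein Hspb7, the keratin Krt23, Mmd and Gm49774. The last 6 from Alcam on lie outside the rule for named genes and are given because they complete the count. Flrt3, a transmembrane protein of the FLRT family, was the 1 member called lower, by -1.82 ± 0.25 (adjusted p = 0.0213), with 8.53 and 5.298 CPM at control day 21 and 26.5 and 28.2 CPM at control day 0. Its IFN levels were 27.9 and 27.99, 2.82 and 2.99 and 8.005 and 8.32 CPM at days 0, 14 and 21. The call count rested on both day 0 control libraries: it was 1 member without control day 0 replicate 1, 0 without its partner replicate 2, 11 when either IFN day 0 library was left out. Leaving out control day 21 replicate 1 gave 56 members higher, against 9.36% of 18051 genes, and 20 lower, against 9.73%. Without both outlying control libraries 19 members were called higher (0.993% of 17422 genes) and 8 lower (0.924%).

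Between control days 14 and 0 edgeR called 4 members higher, Cyp26b1, Fabp4, Ibsp and Wif1 (0.399% of all genes), and 1 lower, Flrt3 (0.133%). Fabp4 changed by 3.66 ± 0.38 log2 (adjusted p = 0.00776) and Cyp26b1 by 2.76 ± 0.30 (adjusted p = 0.0106), while Flrt3 changed by -2.09 ± 0.25 (adjusted p = 0.0183). Ibsp was at least 408-fold higher (adjusted p = 0.00664). Control day 14 lay above control day 0 without overlap in 54 members (20.0% of the 10905 genes) and below it in 56 (23.7%). Of these 5 calls the count fell to 0 when control day 0 replicate 1 was left out, 1 for its replicate 2 and 2 for control day 14 replicate 1. It was 19 and 20 when replicates 1 and 2 of control day 21 were left out in turn, with 323 genes called in each. Without both outlying libraries 11 members were called higher (0.993% of 17422 genes) and 20 lower (1.23%).

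In other fixed lists the share of members at the floor of 3 CPM varied, against 1.85% of all 10905 genes. Members were 6 of 20 growth factor and IGF genes, 3 of 14 glucocorticoid targets (Dusp1, Angptl4 and Pdk4), 4 of 25 matrix remodelling genes, 2 of 14 chemokine and inflammatory genes (Cx3cl1 and Ptgs2), 2 of 17 NRF2 and iron genes, 1 of 19 hypoxia and glycolysis genes (Egln3) and 1 of 21 BMP and TGF-beta genes (Tgfbi). None was among 18 MHC class I, 19 unfolded protein response, 20 cell cycle, 13 circadian, 15 cholesterol synthesis, 12 p53, 12 complement, 9 fibroblast and 7 muscle genes. At a share of 1.85%, no member in lists of this size, or 1 of 19 or 21, does not set a list apart. Of the growth factor list, edgeR called Areg, Ereg and Fgf2 higher and Ptn lower at control day 21 than at control day 0. Igfbp4, a secreted IGF binding protein, had 1395 and 1609 CPM at IFN day 21 and 739.6 and 773 at IFN day 14, against 942 and 731 and 1206 and 638 CPM at the same control days, and the control pairs overlapped.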

How the data were processed

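RNA was sequenced from MC3T3-E1 cells in 12 libraries, 2 in each of 6 groups. HISAT2, SAMtools and featureCounts, with the mm10 build, are the tools named in the submitters' processing notes. The deposited table holds raw counts per gene symbol and library as the authors made them; the annotation and the use of strand are not given in the sources used here. The columns were matched to samples by name, with the name NC read as the control arm.

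CPM used column totals, so members follow the stated rule directly, and log2 ratios used a pseudocount of 0.5 CPM. The members, gene lists and groups were chosen with earlier results of these data known. Because IFN day 14 and day 21 libraries chose the members, these 4 libraries were left out of every test. The other 8 were fitted in R 4.3.3 with edgeR 4.0.16 (filterByExpr, TMM scaling, robust quasi-likelihood F tests on group means, 4 residual degrees of freedom), and p-values were adjusted by Benjamini-Hochberg over the 16540 genes kept, of which 201 were members. The 4 comparisons were control day 21 against days 14 and 0, control day 14 against day 0, and IFN against control at day 0. The procedure was tested on simulated data. Positions are from GENCODE M21 on mm10. Folds against a group with 0 counts set it at 3 counts, and such bounds and intervals cover counting error only.

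Named genes are the 15 most abundant members at IFN day 21, the 12 with the highest ratio, members of the lists, up to 8 members called per comparison and direction, up to 10 that met the rule in control, and the 3 genes on each side of the limit, without predicted or clone names. Results for some named genes are not reported here. That gave 65 names; 22 of the 65 genes in the groups by role fall outside it and were chosen after their values were seen. Each result was recomputed with DESeq2 1.42.0, RLE scaling, unscaled library sizes, other filters, other sets of libraries, a replicate block, an added fold limit, other limits of the rule and each library left out. A fit that drops the outlying control libraries (replicate 1 of day 0, replicate 2 of day 21), and leaving out libraries in the rule, were added after the data were seen.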

Additional observations from a re-analysis of the deposited data

Results flagged for a closer look

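In 4 members the arms moved in opposite directions after day 14: both control day 21 libraries lay below both control day 14 libraries, while the rule places IFN day 21 above IFN day 14. Control day 21 lay below control day 14 in 1.98% of members, against 24.3% of the 10905 genes at or above 3 CPM in both IFN day 21 libraries. The difference between the arms was not tested, and values are given for 3 of the 4. The ratio of mean control day 21 CPM to mean control day 14 CPM was 0.416 for Aldh1a7, an aldehyde dehydrogenase, with 11.1 and 17.0 CPM at control day 21 and 32.4 and 35.3 CPM at control day 14. For Wif1, the secreted Wnt inhibitor, it was 0.515. The predicted gene Gm5886 had a ratio of 0.460 at levels near 1 CPM or less.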

How the results depend on the processing

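The rule gave 429 members at a ratio of 1.5, 63 at 2.5 and 251 to 324 with a library left out. Members meeting it in control numbered 51 and 6 at those ratios, 14 at a floor of 10 CPM, 25 and 27 with TMM and RLE scaling, and 24 to 59 with a library left out. With DESeq2, no filter and all 12 libraries the genes called were 190, 724 and 5 (members 33, 64 and 1) for control day 21 against day 14, 575, 972 and 411 (members 31, 59 and 18) for control day 14 against day 0, and 1243, 1830 and 1114 (members 68, 99 and 57) for control day 21 against day 0. For IFN against control at day 0 they were 1, 31 and 1, with 5 members without the filter. The fit with all 12 libraries includes those that chose the members. With only the groups compared, control day 14 against day 0 had 8 members, and control day 21 against day 0 had 25 genes and 6 members. Without both outlying control libraries these comparisons had 388 genes with 31 members and 334 genes. Leaving out each library gave 0 to 2481 genes and 0 to 58 members for control day 21 against day 14, 0 to 323 and 0 to 20 for control day 14 against day 0, 2 to 3446 and 0 to 76 for control day 21 against day 0, and 0 to 0 for both at day 0. The cause was not tested. The share of calls that were higher for control day 14 against day 0 was 75.0% as reported, 63.3% with DESeq2, 57.5% without the filter and 44.6% without both outlying libraries; for control day 21 against day 0 it was 63.9% as reported and 92.0% with only the groups compared.

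The replicate numbers did not pair the samples, with correlations of deviations between groups from -0.044 to 0.114. With a replicate block the comparisons called 0, 91, 175 and 0 genes and 0, 7, 20 and 0 members, and 1 call named here, Mmd, was lost. Library size alone moved the median log2 change of all genes for control day 21 against day 14 to -0.14, against 0.011 with TMM. Where a library was left out, its partner was taken to vary as other groups do. With 2 libraries a group, calls depended on single libraries more than on scaling.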
